A study of Homo sapiens with 6 samples.

Results

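The angiomotins AMOT, AMOTL1 and AMOTL2, the Ajuba LIM proteins AJUBA, LIMD1 and WTIP, the kinases LATS1 and LATS2, and their upstream partners NF2 and WWC1 were followed in HGC-27 cells with and without knockdown of ACAT2. These 10 genes, of 58735 in the deposited table, were chosen by gene name, as scaffolds and kinases of the Hippo feedback loop, with the difference between shACAT2 and shNC cells already known. The differences of the 10 genes in that comparison are therefore given as a description, without p-values. HGC-27 is an established line of undifferentiated gastric carcinoma. Its cells were given pSIH-H1-Puro-shACAT2, which carries a short hairpin RNA against ACAT2, or the control vector pSIH-H1-Puro-shNC. Both arms received their vector for 24 h and puromycin for 7 days, and each gave 3 RNA-seq libraries (shNC-1 to shNC-3 and shACAT2-1 to shACAT2-3). The labels call the shNC cells WT and leave it unstated whether the hairpin was shACAT2#1 or shACAT2#2, so the comparison rests on 1 cell line and may rest on 1 hairpin.

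The Hippo pathway is a kinase cascade that keeps the coactivators YAP and TAZ out of the nucleus. LATS kinases phosphorylate YAP and TAZ, NF2 and WWC1 bring LATS to the membrane where it is activated, angiomotins hold YAP at junctions and actin and can also bind LATS, and Ajuba LIM proteins bind LATS and restrain it. Several of these genes, LATS2 and AMOTL2 among them, are known targets of YAP/TAZ with TEAD factors, which makes the pathway a feedback loop.

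Values are FPKM, which divides the fragments of a gene by its length and by the size of the library. For the genes followed here, the length was that of all annotated exons merged. Which transcripts were made was not measured. Orders, sums and shares between genes are therefore given on the FPKM scale and depend on that length. The fragments assigned to genes numbered from 14086416 to 16067486 per library. ACAT2 itself had 14.2, 11.7 and 12.7 FPKM in the shNC libraries and 6.19, 5.46 and 6.05 FPKM in the shACAT2 libraries, and it fell by 1.01 on the log2(FPKM + 1) scale (SE 0.10, limma adjusted p = 0.00594). Among markers of the labelled origin, the gastric mucosa genes MUC5AC, MUC6, TFF1, TFF2, GKN1, GKN2, PGC and ATP4A did not exceed 0.206 FPKM in any library, with TFF1, GKN1 and PGC at 0 throughout, and the epithelial KRT8, KRT18, KRT19 and EPCAM did not exceed 0.785 FPKM. The epithelial CDH1, whose mean stayed under 1 FPKM in both groups so that it was not tested, lay at 0.120 to 0.222 FPKM in the shNC and 0.608 to 1.15 FPKM in the shACAT2 libraries. The mesenchymal VIM lay at 246 to 292 and at 340 to 461 FPKM, also without overlap (limma adjusted p = 0.0634). The immune and endothelial markers PTPRC, CD3E, CD68, PECAM1 and VWF peaked at 0.257 FPKM. In shACAT2-3, 7477 genes had fragments in that library alone, against 416 to 657 in each of the others. Between shNC-2 and shNC-3 the chi-square per gene was 1.75, whereas pairs of libraries elsewhere in a group gave 13.7 to 52.4, and the series text calls the replicates biological without saying how the cultures were split, so the spread given here is the spread between libraries and may be partly technical.

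AMOTL2, AJUBA and LATS2 rose in shACAT2 cells, to 2.69, 2.13 and 1.87 times their shNC mean. WTIP and WWC1, at 1.77 and 1.22 times their shNC mean, were higher in all 3 shACAT2 libraries than in any shNC library but did not pass the test. AMOT, AMOTL1 and LIMD1 were lower in all 3 shACAT2 libraries and did not pass either. LATS1 and NF2 overlapped between the groups. Each of the 3 families thus held 1 called member, beside relatives that were lower, overlapped or, as WTIP, were higher without a call. The ratio of WTIP lay close to that of LATS2. As the genes were chosen on this contrast, the split into called and not called only describes these libraries.

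All 10 genes reached a group mean of 1 FPKM and entered the limma fit on log2(FPKM + 1) over 13832 genes, from 364 to 2768 fragments per library and gene. At Benjamini-Hochberg adjusted p below 0.05, 3 of the 10 were called higher, against 3.30% of all genes tested, and 0 were called lower, against 1.81%. The groups did not overlap for 5 genes that were higher, against 16.2% of all genes tested, and for 3 that were lower, against 14.5%. Since the genes were picked on this contrast, nothing is read from these shares. The median log2 fold change of the 10 genes was 0.16, beside 0.016 for all genes tested. For the same reason, the calls with 1 library left out in turn describe these libraries and support nothing further. Only AMOTL2 remained called without shNC-2, without shNC-3 or without shACAT2-2, AJUBA and AMOTL2 remained without shNC-1, and all 3 remained without shACAT2-1 or shACAT2-3. Over all genes, 706 were called, 59 without shNC-3, 104 without shNC-2, 132 without shNC-1 or shACAT2-2, 547 without shACAT2-3 and 849 without shACAT2-1. With the replicate block, which pairs libraries of the same number, 1727 genes were called and the members called were again AMOTL2, AJUBA and LATS2.

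**Figure D1:**
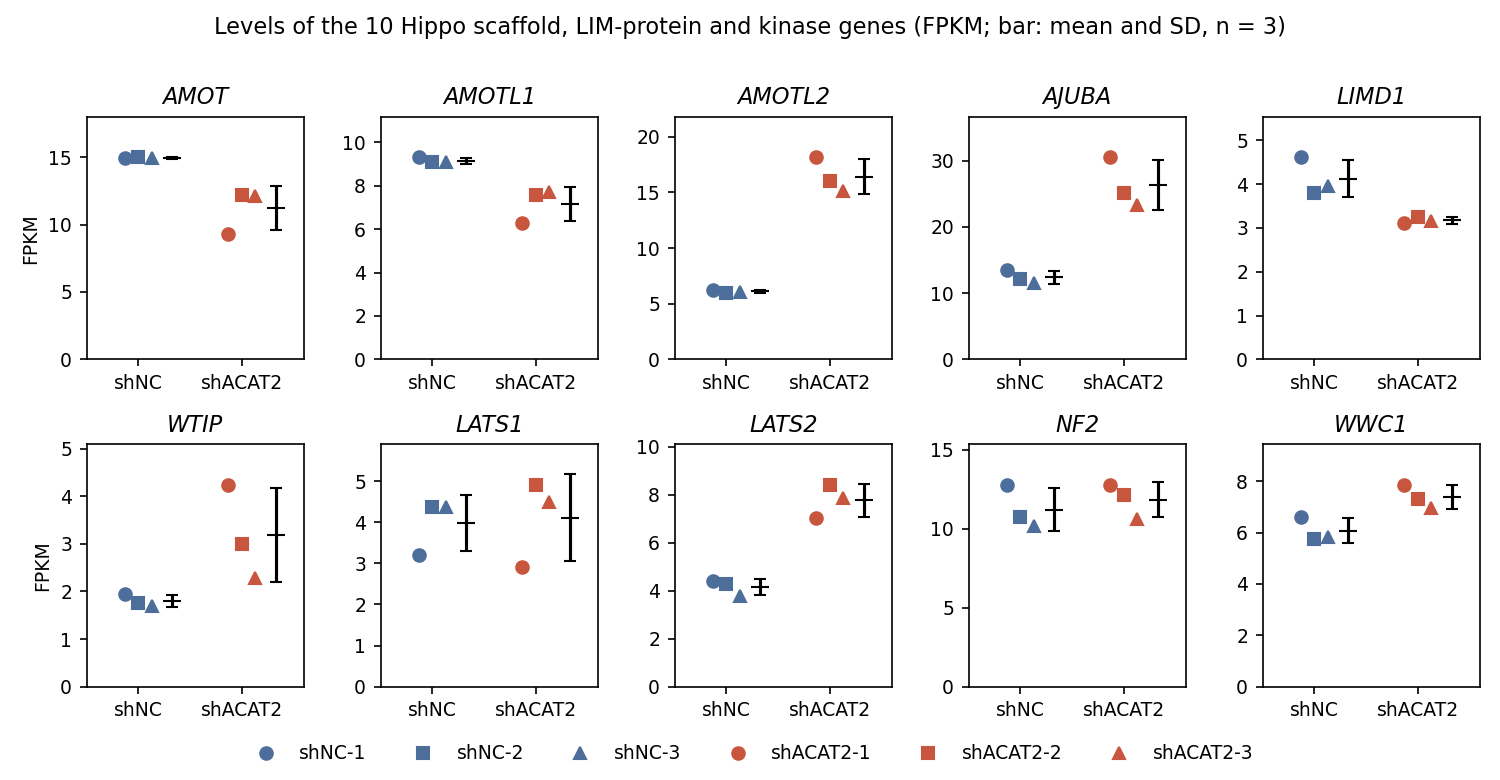
FPKM of each of the 10 genes in the 6 libraries, 1 panel per gene with its own axis from 0, with points for libraries and bars for the group mean and SD (n = 3). AMOTL2, AJUBA and LATS2 separate clearly between shNC and shACAT2, AMOT, AMOTL1 and LIMD1 lie lower in shACAT2, and LATS1 and NF2 overlap.

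The angiomotins are coiled-coil scaffolds of tight junctions and actin that bind YAP through their PPXY motifs. AMOTL2 (ENSG00000114019, chromosome 3 of GRCh38 from 134355874 to 134375479, minus strand) had 6.25, 6.01 and 6.09 FPKM in the shNC libraries and 18.2, 16.0 and 15.1 FPKM in the shACAT2 libraries, here and in what follows in the order of the library numbers. Every shACAT2 library lay far above every shNC library, with means of 6.11 ± 0.121 and 16.4 ± 1.57 FPKM (SD, n = 3) and a log2 fold change of 1.29 (SE 0.10). Of the 13832 genes tested, 54 had a higher log2 fold change. Its exons share 187 bases, 3.12% of its length, with the pseudogene RPL39P5 on the same strand.

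AMOT (ENSG00000126016, chromosome X from 112774503 to 112840815, minus strand), which gave the family its name as a binder of angiostatin, went the other way. It had 14.9, 15.0 and 14.9 FPKM in the shNC libraries and 9.31, 12.2 and 12.1 FPKM in the shACAT2 libraries. The shNC values were nearly identical, with a coefficient of variation of 0.282% where counting alone gives 2.20%, while shACAT2-1 stood below shACAT2-2 and shACAT2-3. The means were 14.9 ± 0.0422 and 11.2 ± 1.64 FPKM (SD, n = 3), a log2 difference of -0.39 (SE 0.12) that did not pass.

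AMOTL1 (ENSG00000166025, chromosome 11 from 94706431 to 94876753, plus strand), another junction scaffold, had 9.31, 9.08 and 9.08 FPKM in the shNC libraries and 6.27, 7.57 and 7.70 FPKM in the shACAT2 libraries. As for AMOT, all shACAT2 values were lower, and shACAT2-1 was the lowest. The log2 difference was -0.32 (SE 0.10) between means of 9.16 ± 0.132 and 7.18 ± 0.786 FPKM (SD, n = 3). The antisense gene AP002383.2 covers 496 exon bases of AMOTL1, 4.94% of its length, and the strand setting of the counting is not given in the sources used here.

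Summed over the family, the angiomotins came to 30.2 ± 0.239 FPKM (SD, n = 3) with shNC and 34.8 ± 1.02 FPKM (SD, n = 3) with shACAT2, a ratio of 1.15. The makeup of the sum differed more than its size. AMOTL2 gave 20.5, 20.0 and 20.2% of it in the shNC libraries and 53.8, 44.8 and 43.3% in the shACAT2 libraries. AMOT gave 49.5 ± 0.435% and 32.1 ± 3.94%, and AMOTL1 gave 30.3 ± 0.198% and 20.6 ± 1.79% (SD, n = 3). By FPKM, AMOTL2 was thus the least abundant angiomotin in every shNC library and the most abundant in every shACAT2 library. The AMOTL2 to AMOT ratios were 0.418, 0.401 and 0.408 in the shNC libraries and 1.95, 1.31 and 1.25 in the shACAT2 libraries. By fragments, AMOT stood above AMOTL2 in shACAT2-2 (1723 and 1594) and shACAT2-3 (1546 and 1356) and below it in shACAT2-1 (1202 and 1650).

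The Ajuba LIM proteins shuttle between junctions, centrosomes and the nucleus and bind LATS through their LIM domains. AJUBA (ENSG00000129474, chromosome 14 from 22971174 to 22982642, minus strand) had 13.4, 12.1 and 11.6 FPKM in the shNC libraries and 30.5, 25.1 and 23.3 FPKM in the shACAT2 libraries. The groups lay far apart, and the library numbered 1 was the highest in each group. The means were 12.4 ± 0.950 and 26.3 ± 3.73 FPKM (SD, n = 3), with a log2 fold change of 1.03 (SE 0.13).

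WTIP (ENSG00000142279, chromosome 19 from 34481638 to 34512304, plus strand) is a partner of the Wilms tumour protein. In shNC cells LATS2 had fewer fragments, but WTIP had the lowest FPKM of the 10 genes. It had 1.94, 1.77 and 1.69 FPKM in the shNC libraries and 4.24, 3.01 and 2.29 FPKM in the shACAT2 libraries. All shACAT2 values were higher but widely spread, with a coefficient of variation of 31.1% against 7.15% in shNC. The log2 difference of 0.55 (SE 0.17), between means of 1.80 ± 0.128 and 3.18 ± 0.989 FPKM (SD, n = 3), did not pass. On the recovered fragments with limma-voom, it was called too, beside AMOTL2, AJUBA and LATS2.

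LIMD1 (ENSG00000144791, chromosome 3 from 45555394 to 45686338, plus strand), a tumour suppressor that also takes part in microRNA silencing, was lower. It had 4.61, 3.80 and 3.96 FPKM in the shNC libraries and 3.11, 3.25 and 3.16 FPKM in the shACAT2 libraries, so that shNC-1 stood apart upwards and the shACAT2 values lay close together. The log2 difference was -0.29 (SE 0.09) between means of 4.12 ± 0.429 and 3.17 ± 0.0735 FPKM (SD, n = 3). LIMD1-AS1, on the opposite strand, covers 1029 of its exon bases, or 8.12%.

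The summed FPKM of this family was 18.3 ± 1.48 in shNC and 32.7 ± 4.67 in shACAT2 cells (SD, n = 3), 1.79 times as high. AJUBA, already the leading member, went from 67.6 ± 0.700% to 80.6 ± 0.519% of the sum, and LIMD1 from 22.5 ± 0.863% to 9.85 ± 1.45% (SD, n = 3). The share of WTIP was 9.83 ± 0.166% and 9.59 ± 1.63%, a difference smaller than its spread. AJUBA stood at 3.00 ± 0.149 times the FPKM of LIMD1 in shNC and at 8.31 ± 1.31 times in shACAT2 cells (SD, n = 3).

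LATS1 and LATS2 are the kinases that phosphorylate YAP and TAZ. LATS2 (ENSG00000150457, chromosome 13 from 20973032 to 21061547, minus strand) had 4.40, 4.28 and 3.78 FPKM in the shNC libraries and 7.01, 8.41 and 7.84 FPKM in the shACAT2 libraries. All shACAT2 values were higher, and unlike AMOTL2 and AJUBA it was lowest in shACAT2-1. The means were 4.16 ± 0.328 and 7.75 ± 0.703 FPKM (SD, n = 3), with a log2 fold change of 0.76 (SE 0.10).

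LATS1 (ENSG00000131023, chromosome 6 from 149658153 to 149718256, minus strand) had 3.19, 4.37 and 4.38 FPKM in the shNC libraries and 2.91, 4.91 and 4.50 FPKM in the shACAT2 libraries. The library numbered 1 was the low one in both groups, and the groups overlapped. The log2 difference was 0.02 (SE 0.18), between means of 3.98 ± 0.684 and 4.11 ± 1.06 FPKM (SD, n = 3), and it lay at -0.0164 with scaling to fragments on genes and between -0.10 and 0.21 with a library left out. The antisense gene AL358852.1 covers 408 exon bases, 4.72% of its length. LATS2 gave 51.3 ± 6.02% of the summed LATS level in shNC and 65.8 ± 4.25% in shACAT2 cells, while the sum was 8.14 ± 0.530 and 11.9 ± 1.75 FPKM (SD, n = 3).

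NF2 (merlin, ENSG00000186575, chromosome 22 from 29603556 to 29698598, plus strand), the membrane and actin linker that recruits LATS, had 12.8, 10.8 and 10.2 FPKM in the shNC libraries and 12.8, 12.1 and 10.7 FPKM in the shACAT2 libraries. The values overlapped, with a log2 difference of 0.07 (SE 0.12) between means of 11.2 ± 1.36 and 11.9 ± 1.10 FPKM (SD, n = 3). WWC1 (KIBRA, ENSG00000113645, chromosome 5 from 168291651 to 168472303, plus strand), a WW-domain partner of NF2, had 6.63, 5.75 and 5.83 FPKM in the shNC libraries and 7.87, 7.31 and 6.97 FPKM in the shACAT2 libraries. All shACAT2 values were higher by a small margin, with a log2 difference of 0.25 (SE 0.09) between means of 6.07 ± 0.484 and 7.38 ± 0.454 FPKM (SD, n = 3) that did not pass.

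**Figure D2:**
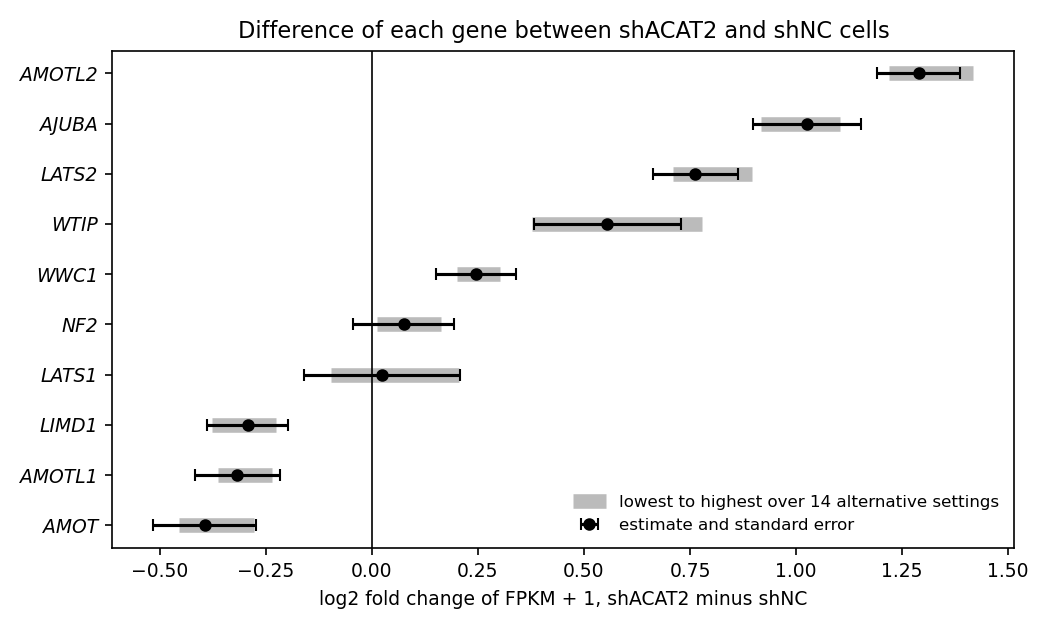
Log2 fold change (shACAT2 minus shNC, log2(FPKM + 1) scale) of the 10 genes, with points and standard errors from the fit and grey bars for the range over the 14 alternative settings. AMOTL2, AJUBA and LATS2 lie at 1.29, 1.03 and 0.76, and only the range of LATS1 crosses 0.

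Ordered by mean FPKM in shNC cells, AMOT came first, followed by AJUBA, NF2, AMOTL1, AMOTL2, WWC1, LATS2, LIMD1, LATS1 and WTIP. The ranges of the 3 libraries overlapped between the neighbours AJUBA and NF2, AMOTL2 and WWC1, LATS2 and LIMD1, and LIMD1 and LATS1, so these pairs were not separated. In shACAT2 cells the order was AJUBA, AMOTL2, NF2, AMOT, LATS2, WWC1, AMOTL1, LATS1, WTIP and LIMD1. There AJUBA was separated from AMOTL2 and AMOTL2 from NF2, whereas the overlapping neighbours were NF2 and AMOT, LATS2 and WWC1, WWC1 and AMOTL1, LATS1 and WTIP, and WTIP and LIMD1. Within groups the libraries did not vary in the same way for every gene. The library shNC-1 was the highest shNC library for 8 of the 10 genes, and shACAT2-1 was an extreme for all of them, the highest for 5 and the lowest for 5.

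The promoters of the 10 genes were read from RefSeq windows (GRCh38.p14) of 250 bases before to 50 bases after an annotated start. Windows were present for 9 genes, 13 windows in all, and LIMD1 had none in the table. They were searched on both strands for GGAATG, the core of the TEAD motif, and for TGANTCA, the AP-1 motif. GGAATG was found in 4 of the 13 windows, 1 each of AMOTL2, AJUBA, WTIP and LATS2, against 14.0% of 35116 windows of all genes. By gene this was 4 of 9, against 16.7% of 27305 genes, or 14.4% of genes with 1 window and 22.3% of genes with 2, as AMOTL2 and AJUBA have. The matches are shown with 12 bases on either side, on the strand of the gene, with the hexamer or its reverse complement in capitals.
AMOTL2, chr3:134374499-134374528, minus strand: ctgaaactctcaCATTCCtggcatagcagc
AJUBA, chr14:22976884-22976913, minus strand: gggaagttggctGGAATGaagccaaagcaa
WTIP, chr19:34481629-34481658, plus strand: ccactccccccaCATTCCagaggccgcagc
WTIP, chr19:34481663-34481692, plus strand: tctccttcctcgCATTCCtgcccccgcaaa
WTIP, chr19:34481746-34481775, plus strand: cctgggagcttaCATTCCtccgccgcgcgc
LATS2, chr13:21061560-21061589, minus strand: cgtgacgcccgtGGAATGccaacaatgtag
The first base of the hexamer lay 69 bases before the start in AMOTL2, 59 before it in AJUBA, 117 and 83 before it and at base 1 after it in WTIP, and at base 10 after it in LATS2. At least 3 copies in a window, as in WTIP, occurred in 0.128% of all windows. The windows of AMOTL2 and AJUBA that hold the match belong to the inner of their 2 starts, and the gene-level FPKM does not show which start was used. TGANTCA was found in 1 window, of LATS1, against 7.71% of all windows. A match is a run of letters and not a measured binding site.

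**Figure D3:**
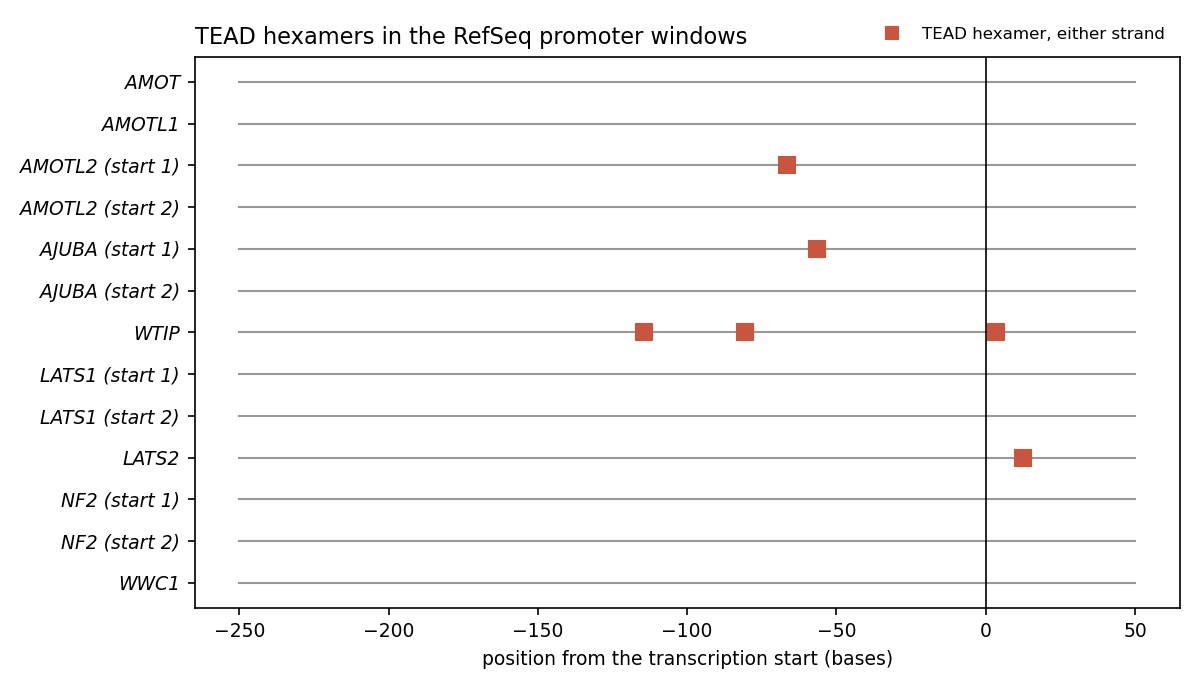
Positions of GGAATG, on either strand, in the 13 promoter windows of 9 of the genes (start 1 and start 2 where a gene has 2 windows), in bases from the annotated start, with each window drawn as a grey line from 250 bases before it to 50 after it. GGAATG appears in 1 window each of AMOTL2, AJUBA and LATS2 and 3 times in the window of WTIP.

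The genes whose profile over the 6 libraries was most like that of the 3 risen members were named by the root mean square difference of centred log2(FPKM + 1), among 7251 genes that averaged 5 FPKM or more over the 6 libraries. Closest to AJUBA were EHD2 (0.0282), an ATPase of caveolae, COL1A1 (0.0335), a chain of type I collagen, and MSX2 (0.0373), a homeobox factor. COL1A1 had 67.0, 57.9 and 58.0 FPKM in the shNC libraries and 139, 116 and 108 FPKM in the shACAT2 libraries, and as for AJUBA the library numbered 1 was the highest in each group. Closest to AMOTL2 were ST13 (0.0318), a co-chaperone of HSP70, L1CAM (0.0697), a cell adhesion molecule, and TSPAN12 (0.0730), a tetraspanin. Closest to LATS2 were WNT5A (0.0764), a secreted Wnt ligand, UBE2H (0.0802), a ubiquitin-conjugating enzyme, and KLF6 (0.0818), a zinc finger factor. AJUBA ranked 17th among the genes nearest to AMOTL2 (0.145), and AMOTL2 ranked 57th among those nearest to AJUBA. LATS2 lay further from both, at 0.217 from AJUBA and 0.299 from AMOTL2. Among the genes nearest to LATS2, AJUBA ranked 337th and AMOTL2 1246th. The centring is over all 6 libraries, so each distance includes the difference between shACAT2 and shNC on which the members were chosen. The ranks and the closest genes therefore only describe these libraries.

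COL1A1 is also a fibroblast marker, and all 3 fibroblast markers were higher in shACAT2 cells without overlap, against 16.2% of all genes tested. COL1A1 and DCN were called higher by limma, against 3.30% of all genes tested. COL1A1 rose by 0.97 on the log2 scale (limma adjusted p = 0.0136). DCN, at 8.08 to 8.17 FPKM in shNC and 11.2 to 12.9 FPKM in shACAT2 libraries, rose by 0.54 (limma adjusted p = 0.0246). COL1A2 lay at 2.57 to 2.83 FPKM and at 3.33 to 4.61 FPKM and did not pass. None of the 3 was at 0 in any library. Their part in the levels of the 10 genes was not tested. In bulk RNA, fewer or more cells of a kind cannot be told apart from less or more RNA per cell.

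The closest relatives of the 10 genes in their protein families (other WWC proteins, ERM and FERM proteins, zyxin-type LIM proteins and kinases near LATS) numbered 14, of which 11 were tested. All 11 had a positive log2 difference, from 0.05 to 1.56, with a median of 0.34 beside 0.016 for all genes. The list was written with earlier results of these libraries known, so its shared sign is not independent evidence of its direction. By limma, 2 rose, 0 fell and 9 did not pass, where 3.30% of all genes tested were called higher and 1.81% lower. EZR (ezrin, the membrane and actin linker related to NF2) had 16.6, 12.7 and 12.9 FPKM in the shNC libraries and 49.5, 41.1 and 38.9 FPKM in the shACAT2 libraries, a log2 fold change of 1.56 (SE 0.15, adjusted p = 0.00483). The separation of EZR was thus wide, in contrast with the overlap of NF2. WWC3, a relative of WWC1, rose by 0.56 on the log2 scale (SE 0.09, adjusted p = 0.0235). With the replicate block, which called 1727 of the 13832 genes tested, 5 of the 11 were called. Without shACAT2-2, or without any 1 of the shNC libraries, 1 was called.

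Of 20 tested genes of the kinase cascade above and beside LATS, 1 rose and 1 fell by limma, where 3.30% of all genes tested were called higher and 1.81% lower, with a median log2 difference of -0.05. Counts of 1 gene in a direction, here and in the STRIPAK and junction lists, are near these shares and are not read as a result about the lists. SAV1, the scaffold that joins MST kinases to LATS, rose by 0.45 (SE 0.09, adjusted p = 0.0376). TNIK, a MAP4K-family kinase, fell by 0.75 (SE 0.14, adjusted p = 0.0335). The replicate block, which called 1727 of the 13832 genes tested, called 5 of the 20. Of the same 20, 3 were called without shACAT2-1 and 0 without any other single library. Counts under the alternatives are not read as results about the kinase, STRIPAK, junction, ubiquitin or effector lists. In STRIPAK, the phosphatase complex that opposes MST and MAP4K kinases, 1 of 16 tested genes rose and 0 fell, with a median of 0.09. The one was PPP2CB, a catalytic subunit of PP2A (log2 fold change 0.52, SE 0.11, adjusted p = 0.0414). The block called 2, leaving out shACAT2-1 called 2, and leaving out any other library called 0.

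Among 25 tested junction and polarity proteins that bind angiomotins, AJUBA, NF2 or WWC1, 1 rose and 0 fell, with a median log2 difference of -0.03. CD44, the hyaluronan receptor that binds merlin and ERM proteins, had 3.66, 3.26 and 3.35 FPKM in the shNC libraries and 6.93, 7.10 and 7.21 FPKM in the shACAT2 libraries. The groups lay far apart, with a log2 fold change of 0.87 (SE 0.08, limma adjusted p = 0.00483). The block called 4 genes, and 0 were called without shNC-3. Genes for ubiquitin ligases and their subunits, tankyrases, deubiquitinases and casein kinases known to act on angiomotins, LATS or YAP/TAZ made up the ubiquitin list. Of its 22 tested genes, limma called 0 in either direction, with 3 at unadjusted p below 0.05, 1 called by limma-voom and 3 with the block. Leaving out shACAT2-1 called 1.

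Among the effectors, YAP1 had 21.6, 23.5 and 23.4 FPKM in the shNC libraries and 19.5, 23.8 and 23.0 FPKM in the shACAT2 libraries, a log2 difference of -0.05 (SE 0.11, limma adjusted p = 0.823). WWTR1, which encodes TAZ, had a log2 difference of 0.01 (SE 0.09, limma adjusted p = 0.958). TEAD1, TEAD2, TEAD3 and TEAD4 had differences of 0.53, -0.03, 0.23 and 0.29, with limma adjusted p of 0.253, 0.921, 0.436 and 0.343. VGLL4, a cofactor that competes with YAP for TEAD and was singled out after its values were seen, had means of 5.32 ± 0.418 and 3.64 ± 0.328 FPKM (SD, n = 3) without overlap, a log2 difference of -0.45 (SE 0.10, limma adjusted p = 0.0515). Of the 7 effectors tested, limma called 0, with 1 at unadjusted p below 0.05, 1 called by limma-voom, 2 with the block and 2 without shACAT2-1.

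Of 23 tested YAP/TAZ target genes, the 10 members left out, 7 rose and 0 fell by limma. Of all genes tested, 3.30% were called higher and 1.81% lower. The median log2 difference was 0.20, beside 0.016 for all genes tested. CYR61 and CTGF, the matricellular proteins, rose by 1.28 (SE 0.16, adjusted p = 0.0107) and 1.42 (SE 0.19, adjusted p = 0.0133), beside the members AMOTL2 at 1.29 and LATS2 at 0.76. TGFB2, a TGF-beta ligand, rose by 0.85 (SE 0.11, adjusted p = 0.0106), and MYOF, a membrane repair protein, by 0.89 (SE 0.13, adjusted p = 0.0149). MYOF entered the test only through its shACAT2 mean of 2.29 FPKM, as its shNC mean was 0.773. ANKRD1, a called gene named here for its level, entered likewise, with a mean of 1.07 FPKM beside 0.208 with shNC. Among genes under 1 FPKM in shNC cells, the filter admits only those with a higher shACAT2 mean. The direction of the MYOF and ANKRD1 calls is therefore not read as a result. The list was written with earlier results of these libraries known, so its count is not independent evidence of its direction. Its calls depended on single libraries, with 0 without shNC-3 or shACAT2-2, 1 without shNC-1 or shNC-2, 7 without shACAT2-1 and 8 without shACAT2-3.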

How the data were processed

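RNA-seq libraries of HGC-27 cells, 3 with shNC and 3 with shACAT2, were grouped by the sample titles. The authors deposited 1 table of FPKM for 58735 genes. The submitters' processing notes name HISAT2 2.0.5, featureCounts 1.5.0-p3, DESeq2 1.20.0 and hg38, with no strand setting, and coordinates and lengths of the 10 genes equalled GENCODE release 29. Fragments were recovered from FPKM and gene length (100% whole within 0.02). The main test was limma 3.58.1 with a trend in R 4.3.3 on log2(FPKM + 1), which understates changes of low genes. It covered genes whose mean reached 1 FPKM in shNC or shACAT2 cells. Its code was run on simulated independent counts, which lack the uneven spread between these libraries and so do not vouch for the test here. As FPKM was deposited, the recovered fragments entered limma-voom only as an alternative. Python 3.11.15, numpy 2.4.6 and pandas 2.3.3 were used elsewhere. Same-numbered libraries deviated together from their group means (correlations 0.445, 0.126 and 0.171). However, shNC-2 with shACAT2-3 (0.198) and shNC-3 with shACAT2-2 (0.141) were also correlated. The study states no pairing, so the main fit had no block, and pairing by number (the replicate block) was run as an alternative. Calls, SE and adjusted p are from the unpaired fit unless another setting is named. The 10 members, the lists and the tests were chosen with earlier results of these data known. By rule, genes named are the members, ACAT2, YAP1, WWTR1, TEAD1 to TEAD4, up to 4 called genes per direction of each list by smallest p, and the 3 closest profiles of AJUBA, AMOTL2 and LATS2. The cell type markers and the genes that overlap member exons are named too. VGLL4 and ANKRD1 were named outside the rule, with their values known. Protein features were not analysed here.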

Additional observations from a re-analysis of the deposited data

How the results depend on the processing

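The log2 differences of 9 of the 10 genes kept their direction under the 14 alternatives, and LATS1 did not. LATS1 was at -0.0099 with upper-quartile scaling, at -0.0164 with scaling to the fragments on genes and between -0.10 and 0.21 with a library left out. AMOTL2 ranged from 1.22 to 1.42, AJUBA from 0.92 to 1.10 and LATS2 from 0.71 to 0.90, past the threshold under 14, 10 and 9 of the 14 alternatives. Members called numbered 2 with an absolute log2 fold change above 1 (AMOTL2 and AJUBA), 4 with limma-voom, 1 (AMOTL2) with shNC-2 and shNC-3 averaged to 1 sample, and 1 to 3 with a library left out. As the members were chosen on this contrast and the alternatives reuse the same libraries, these counts only describe these libraries. Scaling moved the median of all genes from 0.016 to -0.020 at upper quartile and -0.027 by fragments. The causes of these shifts were not tested.

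Genes called over the table numbered 209 without the filter, 1089 with limma-voom, 1727 with the replicate block, 84 with the averaged shNC libraries, 148 with the fold threshold and 59 to 849 with a library left out. The 1727 genes called with the replicate block were out of 13832 tested. Under the block, calls numbered 5 in the kinase cascade, 5 among relatives, 2 in STRIPAK and 4 among junction genes. They numbered 3 among ubiquitin genes and 2 among effectors, and the block changed no call among the members. Beside that share, these counts are not read as results about the lists. Without the filter, calls numbered 0 in the kinase cascade, 1 among relatives, 0 in STRIPAK and 2 among YAP/TAZ targets. With the averaged shNC libraries they numbered 0, 1, 0 and 0 in the same lists. Upper-quartile scaling gave 1 in the kinase cascade, 0 in STRIPAK and 1 among effectors, and scaling to fragments gave 1 among effectors. With at least 10 fragments in every library, STRIPAK had 2 and the junction genes 3. With limma-voom, STRIPAK had 2, the junction genes 2, the ubiquitin genes 1 and the effectors 1. With a library left out, calls ranged from 0 to 3 in the kinase cascade, 1 to 2 among relatives, 0 to 2 in STRIPAK, 0 to 1 among junction genes, 0 to 1 among ubiquitin genes, 0 to 2 among effectors and 0 to 8 among YAP/TAZ targets.

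Precision is limited by 3 libraries per group and, for the 10 genes, by 364 to 2768 fragments per library. The planned protein features were not run.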
